A study of Homo sapiens with 2 samples.

Results

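The heat shock proteins and chaperones described here are 41 genes taken by name: the heat shock factors HSF1 and HSF2, members of the HSP70, HSP110, HSP90 and small heat shock protein families, the mitochondrial chaperonin, and cochaperones and chaperonin subunits that work with them. No array value entered the choice of a name, although the list was drawn up with earlier results of the same arrays known. Of the 41 genes, 37 were measured by a probe set assigned to that gene alone, out of 19775 genes measured in this way. Most of the encoded proteins work in the cytosol and nucleus, but HSPA9, HSPD1 and HSPE1 belong to the mitochondrial matrix and HSPA13 to microsomes, so results are also given without these 4 genes.

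The study asked how WTX (AMER1), a tumour suppressor that acts in WNT signalling, alters gene expression in gastric cancer cells. AGS, an established line from a gastric adenocarcinoma, was infected with a lentivirus that carries the whole coding region of WTX to give AGS.W, and AGS.veh, the negative control, carried the vector control. The stable lines were selected with puromycin after infection, and no separate clones or repeat infections are described for the arrays. Total RNA of each line was read on 1 Affymetrix U133 Plus 2.0 array, so a p-value, an FDR or a standard error cannot be given and a difference between the lines cannot be told apart from a difference between 2 cultures or 2 hybridisations. Values are log2 signals as the authors processed them, and a difference is always AGS.W minus AGS.veh, so that a negative value stands for a lower signal in AGS.W.

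Cells answer heat, heavy metals and other causes of protein unfolding with the heat shock response. HSF1 is held inactive by chaperones in unstressed cells, and when unfolded proteins occupy these chaperones it forms trimers, binds heat shock elements in promoters and switches on HSP70, HSP40 (DNAJ), HSP90 and small heat shock protein genes. HSP70 proteins bind exposed stretches of unfolded clients in cycles of ATP use that DNAJ proteins start and nucleotide exchange factors of the HSP110 and BAG families end, and HSP90 with its cochaperones finishes the folding of kinases and steroid receptors. Tumour cells often depend on these proteins because they carry a high load of unstable clients.

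A heat shock element is made of GAA units and their complement TTC in alternation, each 2 letters apart. Promoter windows of RefSeq on GRCh38.p14, from 250 bases before to 50 after each gene start, were searched on both strands for 3 such units (GAANNTTCNNGAA or its reverse complement TTCNNGAANNTTC). HSPA6, CHORDC1 and DNAJB6 lay at least 1.5-fold lower in AGS.W on every probe set above the signal filter that was assigned to that gene alone, a rule that leaves out 2 brighter DNAJB6 probe sets with smaller differences that also name TMEM135. Of the 6 members that met this rule, only these 3 held such a match before the gene start and are shown. The share of all genes that met the rule was not computed. HSPA2 and BAG3 had no match, and that of DNAJA1 lies after the start. The promoter of HSP90AA1, whose signal was nearly the same in both lines, is set beside those of HSPA6, CHORDC1 and DNAJB6 as a contrast chosen after its values were seen. Capitals mark the units of the match.
HSPA6: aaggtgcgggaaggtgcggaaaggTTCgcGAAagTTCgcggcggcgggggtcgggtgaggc
CHORDC1: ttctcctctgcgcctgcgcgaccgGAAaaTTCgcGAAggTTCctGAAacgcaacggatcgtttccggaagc
DNAJB6: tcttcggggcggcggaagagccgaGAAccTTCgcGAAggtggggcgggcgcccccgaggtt
HSP90AA1: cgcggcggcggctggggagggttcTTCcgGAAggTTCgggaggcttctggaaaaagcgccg
The stretch of HSPA6 is chr1:161524442-161524502 on the plus strand and lies from 98 to 38 bases before the start. That of CHORDC1 is chr11:90223063-90223133 on the minus strand, from 84 to 14 bases before the start. That of DNAJB6 is chr7:157336849-157336909 on the plus strand, from 155 to 95 bases before the start, and that of HSP90AA1 is chr14:102087096-102087156 on the minus strand, from 112 to 52 bases before it. All 4 thus lie upstream of the gene start that set their window. HSP90AA1 has 2 windows, and only 1 of them holds the match. The matches are letters in a window and are no measurement of HSF1 binding.

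Some facts of both arrays bear on every value below. The median log2 signal over 54613 probe sets was 4.02 for AGS.W and 4.03 for AGS.veh. A gene was kept when its brightest probe set reached the median on at least 1 array, which left 12811 genes with a median difference of -0.01. As a sign of RNA quality, the log2 signal of GAPDH probes at the 3′ end differed from that of its 5′ probes by -0.12 in AGS.W and by -0.06 in AGS.veh, so neither array showed an excess of 3′ signal. WTX itself had 1 probe set, which read 3.70 in AGS.W and 3.86 in AGS.veh, below both medians. The virus delivers the coding region only, and it is not known here if that probe set reads inside it, so the labels could not be checked by it. The extraction label names a brain tissue, whereas the other labels and the methods name AGS cells. Of epithelial markers 7 of 8 passed the filter, with KRT18 at 10.87 and 11.17 and KRT8 at 9.76 and 10.13 in AGS.W and AGS.veh, though KRT19 lay below the medians. Markers of brain cells were partly above the filter. Of 5 measured astrocyte and oligodendrocyte markers 3 passed it, MBP (6.10 and 6.19), SLC1A2 (4.79 and 5.02) and MOG (4.70 and 4.35), while GFAP (3.44 and 2.97) and AQP4 (2.03 and 1.69) lay below the medians of both arrays. Of 6 neuron markers 3 passed, GAD1 (7.06 and 7.11), SLC17A7 (5.02 and 4.76) and RBFOX3 (4.59 and 4.46). Of 4 measured leukocyte markers CD3E passed (4.39 and 4.42), while PTPRC lay below (1.85 and 1.63). Of 6 fibroblast markers 3 passed, with COL1A1 at 7.89 and 6.95. The part of other cell types in the results below was not tested.

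The heat shock and chaperone genes lay mostly on the lower side in AGS.W. All 37 measured members passed the signal filter, and 27 of them had a lower signal in AGS.W, 9 had a higher one and FKBP4 had the same signal on both arrays. Over all 12811 genes above the filter 6466 (50.5%) were lower in AGS.W by any amount, 5850 were higher and the rest had equal signals. The members had a median difference of -0.23 and ranged from -1.06 for DNAJB6 to 0.52 for DNAJB5. Without HSPA9, HSPD1, HSPE1 and HSPA13, 25 of 33 were lower and the median was -0.25. In bulk RNA, less RNA per cell and fewer cells that express a gene cannot be told apart.

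Members far from 0 lay on one side. DNAJB6, HSPA6 and DNAJB1 were lower in AGS.W at the 2-fold threshold of the methods, against 1.94% of all genes, and no member was 2-fold higher, against 1.83% of all genes. At 1.5-fold the count was 11 lower, against 7.37% of all genes, and 0 higher, against 6.64%. The 11 genes were DNAJB6, HSPA6, DNAJB1, HSPB8, CHORDC1, HSPA2, HSPA12A, BAG3, BAG2, HSPH1 and DNAJA1. They come from 6 of the families below: DNAJ cochaperones, HSP70, small heat shock proteins, HSP90 cochaperones, BAG proteins and HSP110. Both HSP90 genes, the mitochondrial chaperonin and the CCT subunits have no gene among them. Of probe sets that match several transcripts by design (the _s_at and _x_at types), 33 were among the 74 probe sets of members above the filter, and without both types 5 of the 27 members left were 1.5-fold lower, against 8% of all genes left, with a median of -0.12 for these members.

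**Figure D1:**
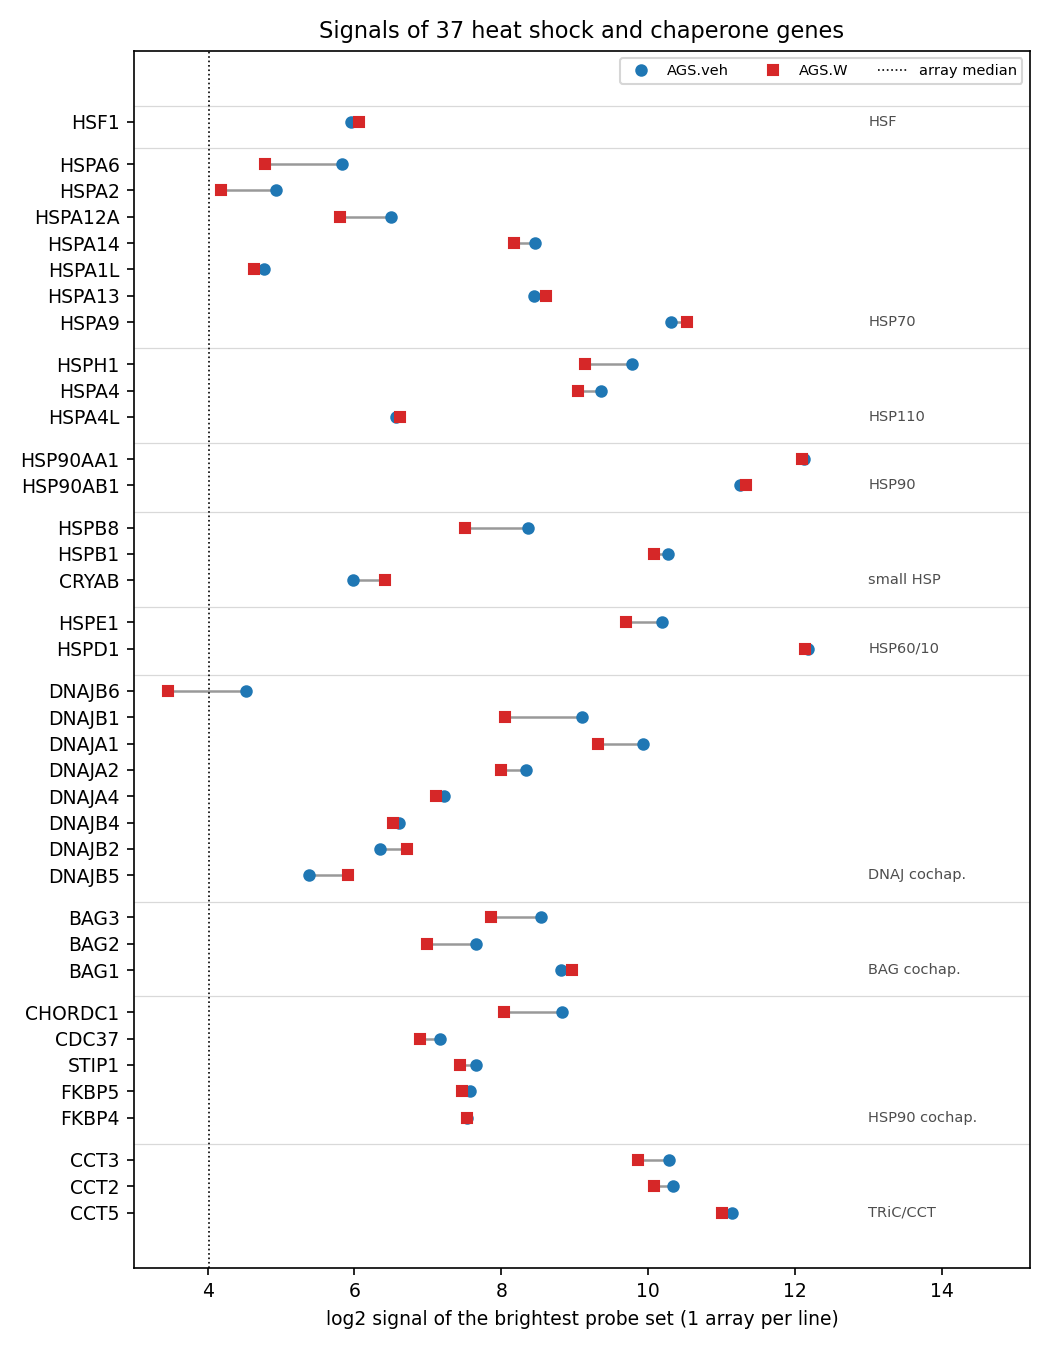
Each of 37 genes is drawn with its log2 signal on the horizontal axis, as a circle for AGS.veh and a square for AGS.W, from the brightest probe set on 1 array per line and without error bars, grouped by family, with the array median as a dotted line. DNAJB6, HSPA6 and DNAJB1 have the widest gaps, with AGS.W on the left, and HSP90AA1, HSP90AB1 and FKBP4 have almost none. Signals of different genes come from different probes and are not compared.

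HSF1, the transcription factor of the response, had 6.06 in AGS.W and 5.95 in AGS.veh, a difference of 0.10. Its RNA therefore differed little on these arrays, and RNA level says nothing of the trimer formation and phosphorylation by which the protein is switched on. HSF2, a related factor active in development, was not analysed here, as no named probe set carries it.

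Among the HSP70 family, 5 of 7 measured genes were lower in AGS.W, 3 of them by at least 1.5-fold, with a family median of -0.29. HSPA6, the strictly stress-inducible HSP70B′, had 4.78 in AGS.W and 5.83 in AGS.veh, a 2.07-fold lower signal, and 1.78% of all genes lay as far or farther on that side. The other probe set of HSPA6, below the median of both arrays, had 3.34 and 3.80. HSPA6 has a near-identical pseudogene, HSPA7, whose RNA these probe sets may not separate from it.
HSPA2, the HSP70 of the testis that some tumours also express, had 4.18 and 4.94, a 1.69-fold lower signal close to the median of the array of AGS.W. HSPA12A, a distant relative of HSP70, had 5.81 and 6.50, a difference of -0.69, and its second probe set differed by -0.46. That second probe set, at 3.70 and 4.16, passed the filter only through AGS.veh. These 3 genes thus lay on the lower side on every probe set read. HSPA14, which binds ribosomes and helps fold new proteins, had 8.18 and 8.46 and was lower on all 3 of its probe sets above the filter. HSPA1L, the testis relative that adjoins the inducible HSP70 genes, had 4.63 and 4.76, close together.

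The HSP70 genes that work outside the cytosol had higher signals in AGS.W. HSPA9, mortalin, which pulls proteins into mitochondria, had 10.53 and 10.31 in AGS.W and AGS.veh and was higher on all 3 of its probe sets above the filter. HSPA13, an HSP70 of microsomes, had 8.61 and 8.44 on its brightest probe set but 7.53 and 6.01 on a second one, whose difference of 1.52 was the only one of any member at least 2-fold on the higher side. The 2 readings of HSPA13 thus share their direction and not their size. HSPA8, the constitutive HSC70, was covered only by probe sets that also name other genes.

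The HSP110 proteins, which release ADP from HSP70 and pull clumped proteins apart with it, had differences from -0.64 to 0.05. HSPH1, the heat-inducible HSP105, had 9.14 in AGS.W and 9.78 in AGS.veh, a 1.56-fold lower signal, and its other probe sets differed by -0.61 and -0.32. HSPA4, APG-2, had 9.05 and 9.36, with 3 probe sets lower and 1 at 0.07. HSPA4L, APG-1, had 6.62 and 6.57, and its 2 probe sets went in opposite directions. HSPH1 thus differed by more than both of its relatives on these arrays.

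The HSP90 genes differed least of all families. HSP90AA1, the inducible form, had 12.10 and 12.12 in AGS.W and AGS.veh, and its 4 probe sets lay between -0.04 and 0.04. HSP90AB1, the constitutive form, had 11.34 and 11.25, and its 3 probe sets lay between 0.07 and 0.13. Every reading of both genes thus lay close to 0.

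The small heat shock proteins, which hold unfolded proteins without using ATP, differed in both directions. HSPB8, the partner of BAG3 in the removal of misfolded proteins by autophagy, had 7.50 in AGS.W and 8.36 in AGS.veh, a 1.82-fold lower signal on an _s_at probe set, and 2.94% of all genes lay as far or farther. The second probe set of HSPB8 differed by -0.45. HSPB1, HSP27, had 10.08 and 10.27. CRYAB, alpha B-crystallin, had 6.42 and 5.98, a 1.36-fold higher signal, so this family held both a gene 1.5-fold lower and one of the largest differences of any member on the higher side.

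The chaperonin of mitochondria is a folding chamber of HSPD1 (HSP60) closed by a lid of HSPE1 (HSP10), whose genes are neighbours on opposite strands of chromosome 2. HSPD1 had 12.14 in AGS.W and 12.18 in AGS.veh, with its probe sets above the filter between -0.38 and -0.04. HSPE1 had 9.70 and 10.19, a 1.41-fold lower signal. Both genes thus lay on the lower side, HSPE1 by more.

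DNAJ proteins bring clients to HSP70 and start its use of ATP. Of the 8 members, 6 were lower in AGS.W, 3 by at least 1.5-fold, and the median was -0.22. DNAJB1, HSP40, the stress-inducible partner of HSP70, had 8.05 in AGS.W and 9.10 in AGS.veh, a 2.06-fold lower signal, and 1.80% of all genes lay as far or farther. The second probe set of DNAJB1 had 7.58 and 8.15, a difference of -0.57, and both are of the _s_at type, so DNAJB1 had no value without that type. Averaged over both, DNAJB1 had a difference of -0.81.
DNAJA1, which helps HSP70 fold and import proteins, had 9.32 and 9.93, a 1.53-fold lower signal, and its second probe set had 7.52 and 8.83, a difference of -1.30. Both readings were thus lower, the dimmer one by more.
DNAJB6, which keeps polyglutamine proteins from clumping, had 3.46 and 4.52, a difference of -1.06. It is the only member below the median on an array, that of AGS.W, where signal may be background, and with that signal set to the median the difference was -0.50. A pair of brighter probe sets that name both DNAJB6 and TMEM135 had differences of -0.36 and -0.39, so the size of 2-fold rests on a dim reading.

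The remaining DNAJ genes lay within 1.5-fold. DNAJA2, a constitutive cytosolic relative of DNAJA1, had 8.00 and 8.34 and DNAJA4 had 7.11 and 7.21, both somewhat lower. DNAJB4, a relative of DNAJB1, had 6.52 and 6.61, with its second probe set at 0.00. DNAJB2, which passes ubiquitinated clients to the proteasome, had 6.72 and 6.35, and DNAJB5, another relative of DNAJB1, had 5.91 and 5.39, a 1.44-fold higher signal. DNAJB5 and DNAJB2 held the first and the third place on the higher side, with CRYAB between them.

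The BAG proteins release clients from HSP70 and route them to folding or degradation. BAG3, which is induced by HSF1 and leads clients to autophagy together with HSPB8, had 7.86 in AGS.W and 8.55 in AGS.veh, a difference of -0.68, and 5.24% of all genes lay as far or farther. BAG2, which blocks the ubiquitin ligase CHIP, had 6.98 and 7.65, a difference of -0.67, and its other probe sets differed by -0.47 and -0.11. BAG1, which links HSP70 to the proteasome, had 8.97 and 8.81 and was higher on all of its probe sets above the filter. The pair BAG3 and HSPB8, which act as 1 complex, were both at least 1.5-fold lower on _s_at probe sets. Without the _s_at and _x_at types BAG3 had no value and HSPB8 was at -0.45, short of 1.5-fold.

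Among cochaperones of HSP90, 4 of 5 measured genes were lower and the median was -0.23. CHORDC1, morgana, a heat-inducible protein that binds HSP90, had 8.04 in AGS.W and 8.82 in AGS.veh, a 1.73-fold lower signal, and 3.65% of all genes lay as far or farther. Its second probe set had 3.66 and 4.26, a difference of -0.60, on the same side, with the AGS.W signal below the median of its array. STIP1, HOP, the bridge between HSP70 and HSP90, had 7.44 and 7.66, and CDC37, which delivers kinases to HSP90, had 6.89 and 7.16. FKBP5, a steroid receptor cochaperone, had 7.46 and 7.58, and FKBP4, its antagonist at the receptor, had 7.54 on both arrays. CHORDC1 was the only one of the 5 past 1.5-fold. AHSA1, which speeds up the ATPase of HSP90, was not analysed here.

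TRiC/CCT is the cytosolic folding chamber for actin and tubulin, and 3 of its subunits were measured. CCT3 had 9.87 in AGS.W and 10.29 in AGS.veh, CCT2 had 10.09 and 10.34, and CCT5 had 11.00 and 11.15. All 3 were lower, with differences between -0.42 and -0.15 on their brightest probe sets, while dimmer probe sets of CCT2 and CCT5 differed by -0.51 and -0.70. TCP1, a further subunit, was covered only by probe sets that name a second gene as well.

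Several probe sets of a gene read the same RNA and are no replicates, but they show how far a value rests on 1 of them. Of the 74 probe sets above the filter that name a single member 52 were lower and 20 higher in AGS.W, against 49.8% lower among all 23332 probe sets above it. By at least 2-fold 4 were lower, against 1.93% of all, and 1 was higher, against 1.94%. Of 25 members with several such probe sets, 16 were lower on all of them, and HSPA9, HSPA13, HSP90AB1 and BAG1 were higher on all. The same shares over all genes with several probe sets were not computed. HSP90AA1, HSPA4 and HSPA4L went in both directions. DNAJB4 had a lower probe set and one at 0.00, and FKBP4 had a higher one (0.02) and one at 0.00. HSPA2, HSPA6, DNAJA1, DNAJB6, BAG3 and CHORDC1 were at least 1.5-fold lower on every such probe set, although HSPA2, HSPA6, DNAJB6 and BAG3 had only 1. The share of all genes that met this rule was not computed either. For DNAJB6 the brighter probe sets shared with TMEM135 had -0.36 and -0.39, short of 1.5-fold. The probe set of DNAJB6 and the dimmer one of CHORDC1, at 3.66 in AGS.W and 4.26 in AGS.veh, passed the filter only through AGS.veh. So did the dimmer one of HSPA12A, at 3.70 in AGS.W and 4.16 in AGS.veh. The lower direction of these probe sets thus followed from the filter. When the probe sets of each gene were averaged, 8 members were 1.5-fold lower, against 4.98% of all genes. They were HSPA2, HSPA6, DNAJA1, DNAJB6, BAG3, CHORDC1, HSPB8 and DNAJB1.

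**Figure D2:**
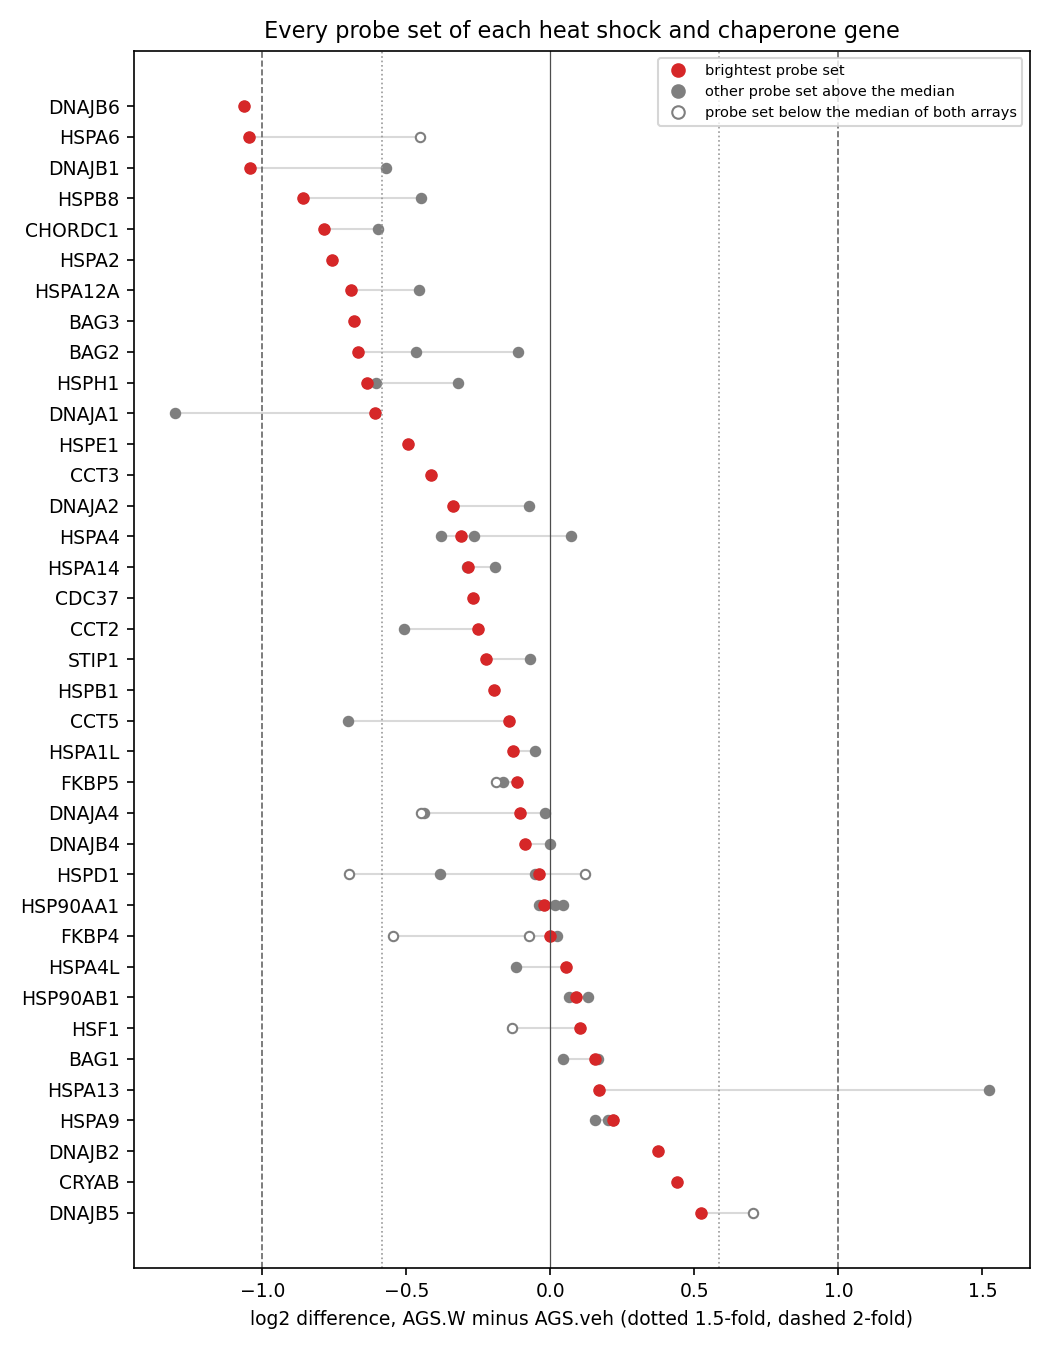
Log2 difference AGS.W minus AGS.veh (horizontal axis) of every probe set assigned to each gene alone, ordered by that of the brightest one (red), with further probe sets above the signal filter (grey) and those below the median of both arrays (open). Most genes have all points on one side of 0, the brightest point and the others of DNAJA1 and HSPA13 lie far apart, and DNAJA1 reaches -1.30 and HSPA13 1.52.

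Other chaperone genes that are not on the list of 41, written down by family from general knowledge, were spread more evenly. Of 84 such genes 68 were measured and passed the filter, and 36 were lower and 30 higher in AGS.W, with a median of -0.02. At least 2-fold higher was DNAJC27, with 5.61 and 4.48, and at least 1.5-fold lower was DNAJC12, with 8.83 and 9.63, although its other probe sets differed by 0.52 and -0.32. Further cytosolic DNAJ genes had 6 lower and 7 higher of 14, and cochaperones of HSP70 and HSP90 had 9 lower and 9 higher of 19, from TTC4 at -0.48 to PIH1D1 at 0.34. The 3 further small heat shock protein genes above the filter were all lower, with a median of -0.20. All but HSPB7 (6.97 and 7.24) passed it only through AGS.veh, so their direction followed from the filter. The measured genes of that group below the filter had differences from 0.00 to 0.26.
Of the remaining CCT subunits and prefoldin, which hands actin and tubulin to CCT, 10 of 14 were lower with a median of -0.11, and CCT4 had -0.33. Mitochondrial chaperones and proteases had 6 lower and 8 higher of 14, between -0.40 for GRPEL1 and 0.54 for LONP1. No test of the difference between these genes and the 41 was made, since the lists were written with earlier results known and there was 1 array per line.

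Chaperones of the endoplasmic reticulum, which answer mainly to the unfolded protein response, lay on the other side. Of 32 above the filter 25 were higher in AGS.W, against 5850 of all 12811 genes, with a median of 0.37. By at least 1.5-fold 9 were higher, against 6.64% of all genes. HSPA5, BiP, the HSP70 of this compartment, had 11.97 in AGS.W against 11.03 in AGS.veh, while HSP90B1, GRP94, its HSP90, had 10.56 and 9.63. The second probe set of HSPA5 was higher by 0.87 and that of HSP90B1 by 0.75. HERPUD1, a degradation factor of the same compartment, had the largest difference of that list with 1.40, and FKBP7 the lowest with -0.82. HSPA5 and HSP90B1 were thus higher in AGS.W, while both cytosolic HSP90 genes were nearly equal. Of the 7 measured HSP70 members 5 were lower, from -1.05 for HSPA6 to -0.13 for HSPA1L, and HSPA9 and HSPA13 were higher. Proteasome subunits, which degrade proteins that fail to fold, were lower in 25 of 30 genes, against 50.5% of all genes. None of them reached 1.5-fold and the median was -0.13.

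**Figure D3:**
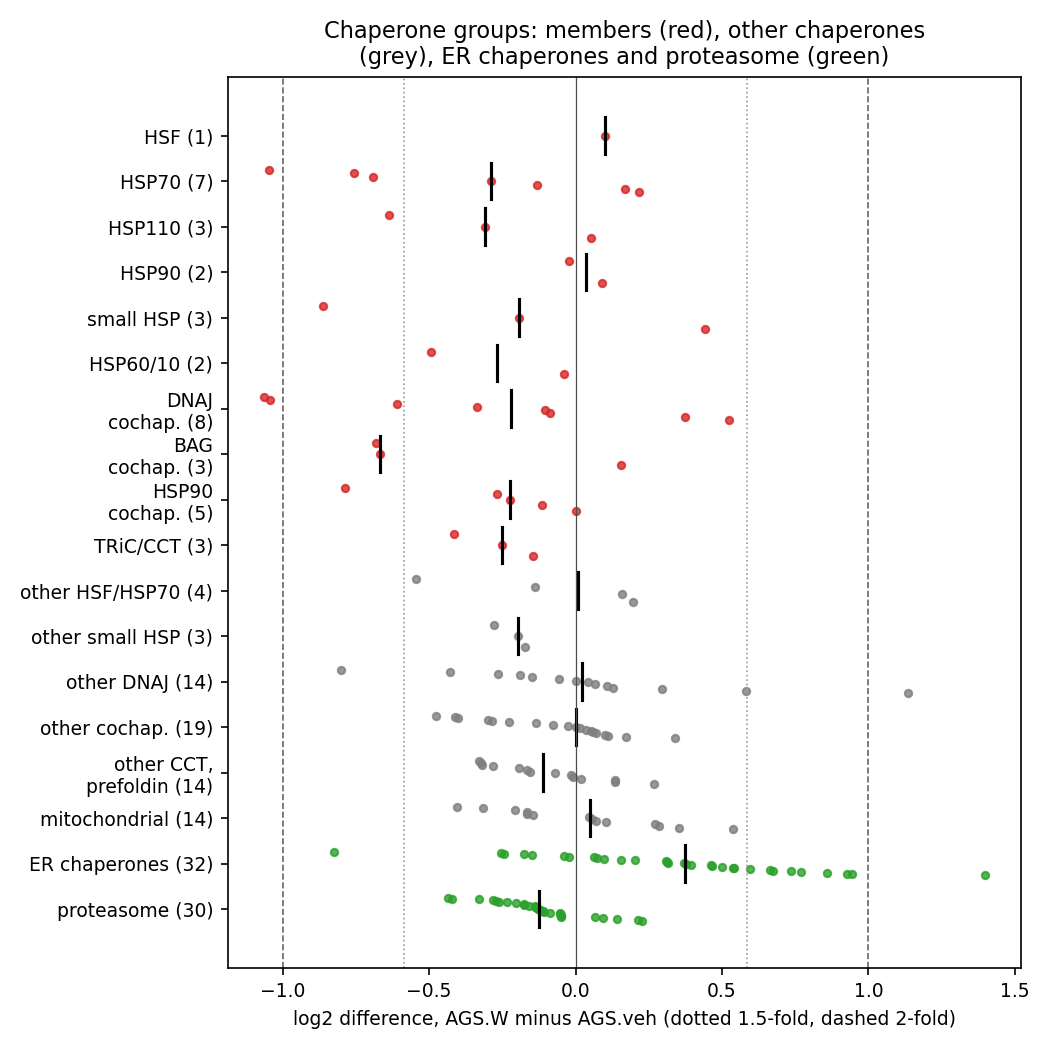
Log2 difference AGS.W minus AGS.veh (horizontal axis) of each gene above the signal filter, by family of the 37 members (red), by group of other chaperone genes (grey) and for chaperones of the endoplasmic reticulum and proteasome subunits (green), with group medians as black bars, the number of genes in brackets and lines at 1.5-fold (dotted) and 2-fold (dashed). Red points past the left dotted line are the 11 genes 1.5-fold lower, no red point passes the right one, and the chaperones of the reticulum have a median of 0.37.

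The members share heat shock element letters far above the rate in other promoters, which is known of this gene class and was not a result of the arrays. The 3-unit match shown above was found in 172 of 35116 windows of all genes (0.490%) and in 8 of 54 windows of members (14.8%). The 8 genes were HSPA6, HSPA8, HSP90AA1, HSP90AB1, HSPD1, DNAJA1, DNAJB6 and CHORDC1, and that of DNAJA1 lies after the gene start. The shorter letters of 2 units (GAANNTTC or TTCNNGAA), each its own reverse complement and contained in every 3-unit match, were in 13.5% of all windows and in 38.9% of those of members. HSF1, HSPA14, CRYAB and FKBP4 had no window in the table.

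Members with these letters were not alike in their differences. Of the 7 measured members with a 3-unit match, HSPA6, DNAJB6, CHORDC1 and DNAJA1 were lower in AGS.W by at least 1.5-fold, while HSP90AA1, HSP90AB1 and HSPD1 lay between -0.04 and 0.09. Their median was -0.61, and that of the 26 other measured members with a window was -0.24. The -0.61 and the 4 genes 1.5-fold lower include DNAJB6, whose -1.06 rests on a signal below the median of the AGS.W array. Its brighter probe sets, shared with TMEM135, had -0.36 and -0.39, short of 1.5-fold. HSPA8, also with a 3-unit match, was left out because its probe sets name further genes. Those probe sets had differences between -0.26 and -0.12. Of the 11 members 1.5-fold lower 4 had a 3-unit match, and of the 22 others 3 did. For 2 units these counts were 7 of 11 and 11 of 22, with medians of -0.21 with the letters and -0.31 without. HSPA2, HSPA12A, HSPH1 and BAG3, also 1.5-fold lower, had neither match in their windows, which says only that these letters are not in that stretch. The values are descriptions of 33 genes on 1 pair of arrays, and no test was made.

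**Figure D4:**
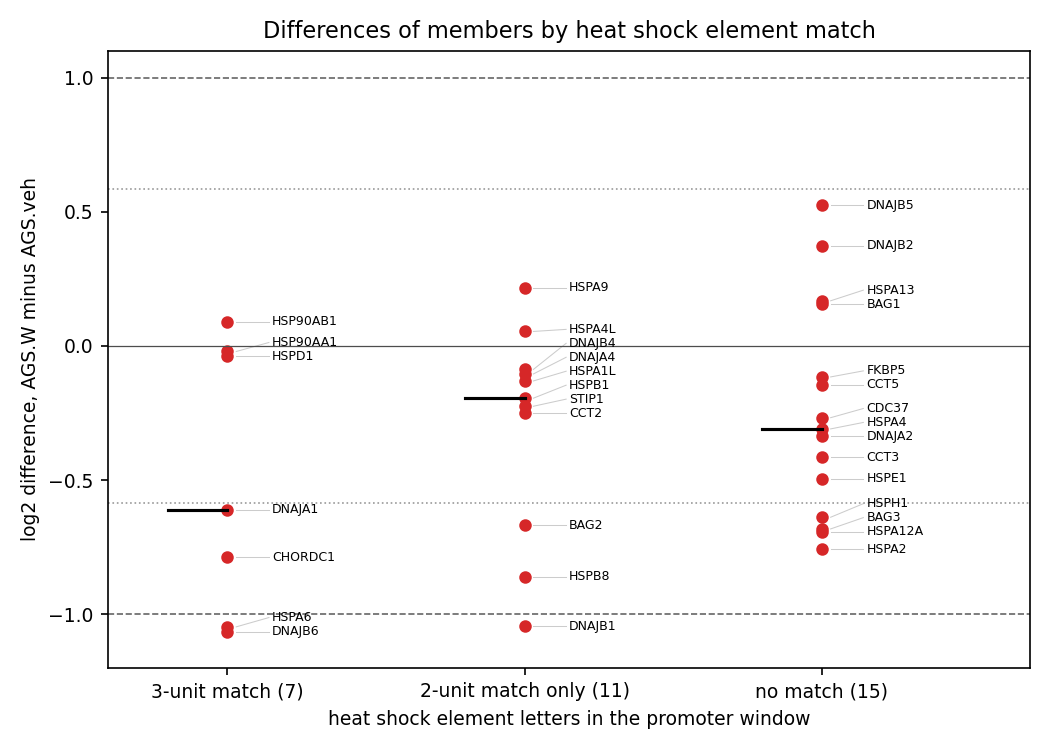
Log2 difference AGS.W minus AGS.veh (vertical axis) of 33 members with a promoter window, by whether the window holds 3 units of a heat shock element, 2 units only or neither, with class medians as black bars and lines at 1.5-fold (dotted) and 2-fold (dashed). The 7 genes with 3 units fall apart into 4 at or below -0.61 and 3 near 0, and genes without a match span -0.76 to 0.52. DNAJB6, the lowest, is drawn from a dim probe set.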

How the data were processed

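RNA of AGS.W and AGS.veh was read on 1 array per line. The authors deposited a normalized log2 signal for each probe set. The labels list RMA and MAS5 without a role or a version. From these, differences were computed for 54613 probe sets, with 62 controls left out. By the platform annotation of 2016, 41091 of these name 1 gene, 1801 name several and 11721 are unnamed here. A gene was represented by the brightest of the probe sets assigned to it alone, a choice that can change a value and was varied. The 2-fold threshold is that of the methods, and the FDR could not be applied. The members and all lists were chosen with earlier results of these data known. Every measured member is named, and of other lists the largest 2 in each direction and each gene at least 2-fold apart may be. Lists were described by counts and medians beside all genes above the filter. Precision is limited by the number of arrays and, for dim probe sets, by the background. Promoter windows came from RefSeq, with 37 of 41 members matched. Scripts were tested on simulated data. Alternatives were other scalings, filters, thresholds and probe set summaries. Setting signals below the array median to it was chosen after seeing the data. Computation used Python 3.11.15, pandas 2.3.3, numpy 2.4.6, matplotlib 3.10.9 and statsmodels 0.14.6.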

Additional observations from a re-analysis of the deposited data

How the results depend on the processing

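No paired analysis was possible because AGS.W and AGS.veh had 1 array each, which also left no replicate to omit. The 3 members at least 2-fold lower became 1 as means of all probe sets, 1 when the upper quartile of the signal was required, 11 at a threshold of 1.5-fold and 0 at 3-fold. None was 2-fold higher, or 1 (HSPA13) when any probe set could pass. The 11 members 1.5-fold lower became 5 without _x_at and _s_at probe sets, where HSPA6, HSPA12A, DNAJA1, BAG2 and CHORDC1 were left, and were between 8 and 12 under the other alternatives. None was 1.5-fold higher, or 2 as means of all probe sets (HSPA13 at 0.85 and DNAJB5), 1 as means of those above the filter and 1 with any probe set. The median of -0.23 became -0.12 without _x_at and _s_at types. Of 249 alternative values of single members 238 stayed within the spread of differences at their signal level, which many could hardly leave since they have 1 probe set. DNAJA1 moved to -1.30 and HSPB8 to -0.45 without those types. In all, 7 values of 5 members (HSF1, HSPA4, HSPA4L, HSP90AA1 and HSPD1) changed sign, none of a member with a difference over 0.31 in size. Scaling moved the median of all genes by at most 0.01. Lowess, a scaling that depends on signal, moved some bright members by more. With it HSP90AA1 went from -0.02 to 0.03 and DNAJA1 from -0.61 to -0.57, short of 1.5-fold. Members close to the array median, such as HSPA2, HSPA1L and DNAJB6, have the least signal over background.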

Other observations

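Probe sets that name several genes entered no comparison. The inducible HSP70 genes HSPA1A and HSPA1B, the best known targets of HSF1, are nearly identical neighbours, and the arrays read them only together. A probe set naming both had 9.57 in AGS.W and 10.64 in AGS.veh, a difference of -1.08, and another had 7.02 and 8.14, a difference of -1.12. The remaining one, which also names HSPA1L, had 7.98 and 9.19, a difference of -1.21. All 3 thus passed 2-fold on the lower side, and which of the genes differed cannot be told apart. Of 20 probe sets that name a member or another chaperone gene beside a further gene, these 3 were the ones at least 2-fold lower and 0 were 2-fold higher. Since the 3 read the RNA of the same genes, they are no separate results. The share among all probe sets of several genes was not computed. Among probe sets of 1 gene above the filter, 1.93% were 2-fold lower and 1.94% 2-fold higher.

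HSPA8, the constitutive HSC70, shares its 4 probe sets with small nucleolar RNA genes of its introns (SNORD14C and SNORD14D), and their differences lay between -0.26 and -0.12. The 3 probe sets that name TCP1 and SNORA29 had -0.25, -0.45 and 0.30. A probe set naming CHORDC1 and NAALAD2 had 5.59 and 6.42, a difference of -0.83.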
